A study of Mus musculus with 10 samples.

Results

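The genes described here are those that cut, protect, modify and crosslink collagen: the matrix metalloproteinases (MMPs), the tissue inhibitors of metalloproteinases (TIMPs), the lysyl oxidases (Lox and Loxl1 to Loxl4), the lysyl hydroxylases (Plod1 to Plod3), the alpha subunits of prolyl 4-hydroxylase (P4ha1 to P4ha3), and Tgm2, Serpinh1 and Pcolce. They were picked out by gene symbol, and 41 of the 37882 genes in the table matched, 23 of them MMPs. RNA was sequenced from 10 orthotopic tumours of MCa-M3C, a breast cancer cell line of the mouse, in FVB/N hosts. The 5 TMA-ARB tumours came from mice that received the angiotensin receptor blocker valsartan in its TMA-ARB form, a form built to be activated in the tumour microenvironment, at 40 mg/kg into the retro-orbital vein each day for 6 days. The 5 Control tumours came from mice given the same volume of PBS by that route. Both groups carried tumours of about 100 cubic millimetres at the start. The labels give no age or sex and do not state whether the libraries come from different animals, and p-values here cover only the spread among libraries. The tumours were bulk tissue from a single cell line, with host cells present.

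MMPs are zinc proteases that are made as inactive precursors and cleave collagens and other matrix proteins once a propeptide is removed. Collagenases cut the intact collagen triple helix, gelatinases cut the unwound chains, stromelysins cut proteoglycans and activate other MMPs, and membrane-type MMPs act at the cell surface. TIMPs bind the active site of MMPs and block it. Inside the cell, prolyl and lysyl hydroxylases and the chaperone HSP47 (Serpinh1) prepare procollagen, and outside it lysyl oxidases and transglutaminase 2 join collagen and other matrix chains, which stiffens tumour stroma. Angiotensin II signalling is known to promote matrix production by fibroblasts.

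Of the 23 MMP genes, 10 lie side by side on chromosome 9 within 427.1 kb (7272514 to 7699585, mm10), among them Mmp13, Mmp12, Mmp3 and Mmp10. These genes are known for a shared promoter element, the AP-1 site bound by Fos and Jun proteins. RefSeq (GRCm38.p6) had an annotated start for 30 of the 41 genes, and the 250 bases before each start were searched for TGANTCA, which reads the same on both strands. It was found for 8 of the 10 genes of the chromosome 9 cluster and for 0 of the other 20 genes matched. Counted by window, since some genes have more than 1 start, it was in 8 of 12 cluster windows (66.7%) and 0 of 21 others. Of all 32851 promoter windows of that length, 6.75% had it. The core ACGTG, searched on both strands, which forms part of hypoxia response elements, was found for 7 of the 30 genes, against 16.6% of all windows. That gene count takes a match before any start of a gene, so it is not a share of windows. A match is a run of letters in the window and was not read as a site in use. The stretches of 110 bases before the start are printed here for the 4 abundant genes of the cluster and for P4ha1 and P4ha2. All 6 had a motif match and had their 2 highest values in the same pair of tumours. Mmp8, Mmp11 and Plod1 were also highest in that pair, but neither motif was found before their starts. Lox and Plod2 had that pair as well but no annotated start to search. Of the genes with TGANTCA, Mmp1a, Mmp1b, Mmp20 and Mmp7, all of low counts, did not have that top pair. Of the genes with ACGTG, Mmp14, Mmp7, Plod3, Serpinh1 and Timp1 did not have it. All stretches printed are on the plus strand. Capitals mark TGANTCA in the MMP genes and, in the hydroxylase genes, ACGTG as read on one or the other strand. Mmp12 has a pair of annotated starts, and the motif stands before the downstream one.
Mmp13, chr9:7272404-7272513: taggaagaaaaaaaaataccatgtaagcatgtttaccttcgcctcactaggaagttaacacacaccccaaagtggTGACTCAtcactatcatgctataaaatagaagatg
Mmp12 upstream start, chr9:7344287-7344396: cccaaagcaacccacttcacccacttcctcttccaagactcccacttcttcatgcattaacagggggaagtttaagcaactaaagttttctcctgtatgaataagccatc
Mmp12 downstream start, chr9:7347264-7347373: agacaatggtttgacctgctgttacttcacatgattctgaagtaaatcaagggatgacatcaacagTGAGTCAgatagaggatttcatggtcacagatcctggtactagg
Mmp3, chr9:7445712-7445821: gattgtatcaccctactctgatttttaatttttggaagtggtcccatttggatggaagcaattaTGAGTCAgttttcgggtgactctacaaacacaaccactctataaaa
Mmp10, chr9:7502232-7502341: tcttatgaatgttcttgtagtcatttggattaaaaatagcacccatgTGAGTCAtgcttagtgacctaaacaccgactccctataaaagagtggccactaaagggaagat
P4ha1, chr10:59323186-59323295: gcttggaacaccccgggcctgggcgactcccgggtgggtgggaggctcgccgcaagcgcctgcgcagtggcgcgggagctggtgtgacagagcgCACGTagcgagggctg
P4ha2, chr11:54100814-54100923: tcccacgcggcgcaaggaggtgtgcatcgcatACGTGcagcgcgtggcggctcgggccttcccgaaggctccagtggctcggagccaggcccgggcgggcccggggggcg

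The libraries held 12742953 to 15468825 counts under TMA-ARB and 14266136 to 16884621 counts in Control. Levels are given in CPM, the count of a gene scaled to its library's size, with sizes adjusted by the trimmed mean of M values (TMM). Mitochondrial genes took a share of the counts that ran from 2.22% to 25.0% under TMA-ARB and from 2.07% to 6.63% in Control. TMA-ARB replicate 9, at 25.0%, stood apart. TMA-ARB replicates 8 (10.5%) and 10 (11.7%) were also above every Control library, while TMA-ARB replicates 6 (2.22%) and 7 (3.18%) lay within the Control range. The share thus went partly with treatment, so fits with it as a covariate cannot fully separate share from treatment. TMA-ARB replicate 9 was the lowest library for 8 of the 34 genes tested here (23.5%), and for 18.5% of all genes. TMA-ARB replicate 6, at 2.22%, was the lowest for 9 of them (26.5%), and for 12% of all genes. Summed fibroblast markers (7 genes) spanned 5175 to 5910 CPM under TMA-ARB and 4959 to 6343 CPM in Control. The sum joins genes that differed: by log2 fold change, TMA-ARB over Control, 3 were above 0 and 4 below. They ran from -0.58 (Pdgfrb) to 0.95 (Lum), with 0 calls. Summed epithelial markers (Krt8, Krt18, Epcam and Cdh1) spanned 105 to 229 CPM under TMA-ARB and 83.1 to 157 CPM in Control, so markers of both epithelium and stroma were detected, with Epcam low at 3.30 ± 4.94 CPM under TMA-ARB and 1.95 ± 0.988 CPM in Control (SD, n = 5 each).

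Per kilobase of exon, the most abundant of the 41 genes was Timp1, with a mean over the 10 libraries of 615 CPM per kb. Mmp3 at 470 and Mmp13 at 463 CPM per kb came next and did not differ beyond their spread. Mmp10 (235), the collagen chaperone gene Serpinh1 (218), Timp2 (175) and Pcolce (122 CPM per kb) followed. P4ha1 was the highest of its family at 88.8 CPM per kb, Plod2 at 47.8 and Mmp14 at 48.6. Mmp12 stood at 59.6 CPM per kb over a long set of annotated exons, and Mmp9 at 37.1. The lysyl oxidases ran from 2.99 (Loxl4) to 16.3 (Lox) CPM per kb. At the other end, Mmp7 (1 count in all), Timp4 (2), Mmp21 (3) and Mmp20 (5 counts) were at or near the limit of detection: where nothing was counted, a level of 3 counts remains possible, which is 0.181 to 0.307 CPM in TMA-ARB libraries and 0.168 to 0.215 CPM in Control libraries. This limit covers counting error only.

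**Figure D1:**
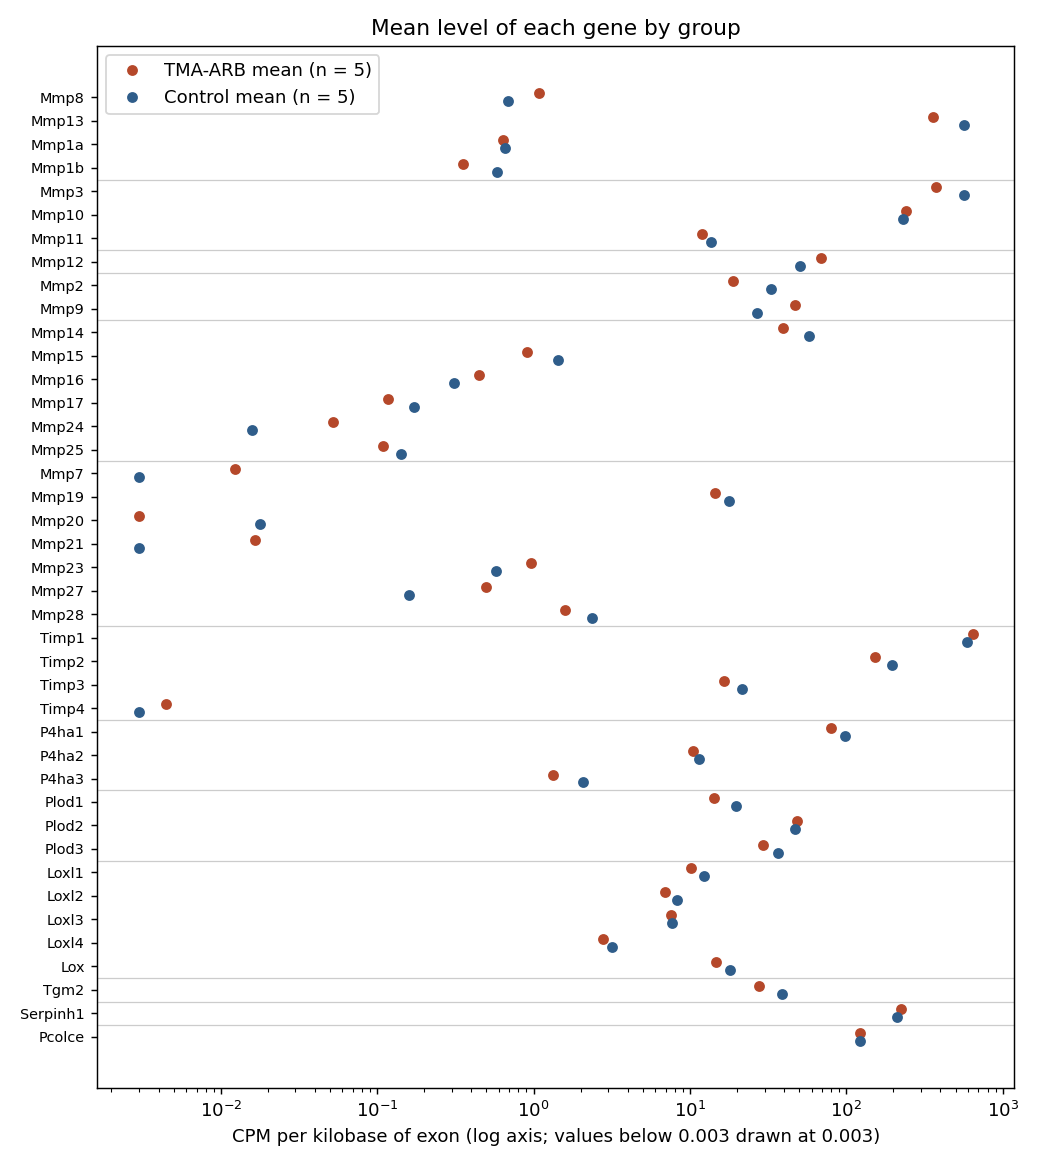
Mean CPM per kilobase of exon of the 41 genes, on a log axis, under TMA-ARB (red) and in Control (blue), n = 5 libraries each; grey lines part the roles. Timp1, Mmp3 and Mmp13 lie at the right, and Mmp7, Mmp20, Mmp21 and Timp4 at the left.

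The question was whether blocking angiotensin signalling in the tumour changed RNA for matrix-cutting and matrix-joining enzymes. No gene of the set passed the test. EdgeR's quasi-likelihood test, fitted over 14063 genes, called 0 of the 34 members that passed the low-count filter, and 0% of all genes, at an adjusted p under 0.05. DESeq2 called 0 members as well, against 0.00837% of the genes to which it gave an adjusted p. At an unadjusted p under 0.05 edgeR had 2 members, Mmp14 and Tgm2, against 3.25% of all genes. Among the 34, 24 had a log2 fold change below 0 and 10 above it, with a median of -0.28, while 47.2% of all genes were below 0 and their median was 0.02. The members below 0 were 11 of 17 MMPs, 2 of 3 TIMPs and 11 of 14 collagen-modifying genes. In 7 members all 5 TMA-ARB libraries lay below the Control mean, against 6.04% of all genes; in 0 members did all 5 lie above it, against 3.04% of all genes. The groups did not overlap in 1 member, Plod3, against 0.526% of all genes. In bulk tumours, fewer cells of a type and less RNA per cell cannot be told apart.

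The median moved with single libraries. Leaving out TMA-ARB replicate 8 gave -0.42, with 6 of 34 members above 0. Leaving out Control replicate 2 gave -0.03, with 15 of 34 above 0. Leaving out both, a fit added after the data were seen, gave -0.24, with 10 of 34 above 0. With mitochondrial share (log2) as a covariate the median was -0.24, with 9 of 34 above 0.

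**Figure D2:**
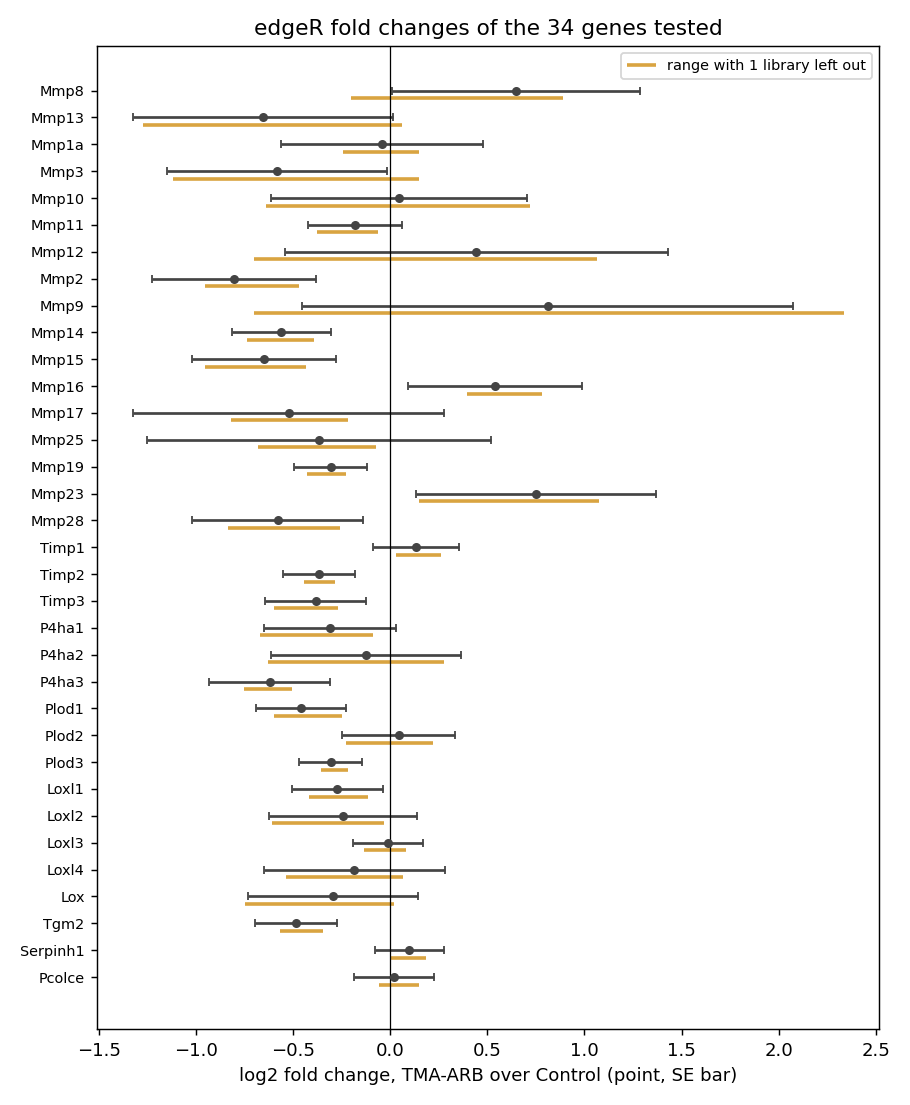
Log2 fold change, TMA-ARB over Control, from edgeR for the 34 genes tested (points, with SE bars) and the range of that value when 1 library at a time is left out (yellow bars). The widest bars belong to Mmp9, Mmp12, Mmp13, Mmp3 and Mmp10, whose ranges all cross 0.

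Among collagenases, Mmp13, the main interstitial collagenase of mice, measured 629, 310, 2306, 736 and 834 CPM in TMA-ARB replicates 6 to 10, against 468, 3883, 1893, 636 and 694 CPM in Control replicates 1 to 5. TMA-ARB replicate 8 and Control replicates 2 and 3 were high and the groups overlapped. Its log2 fold change was -0.65 ± 0.67 (SE; edgeR adjusted p = 0.997). It was 0.06 on leaving out Control replicate 2 and -1.27 on leaving out TMA-ARB replicate 8. Mmp8, the collagenase of neutrophils, averaged 2.62 ± 2.69 CPM under TMA-ARB and 1.66 ± 0.742 CPM in Control (SD, n = 5 each). Its 7.30 CPM in TMA-ARB replicate 8 carried the difference: the log2 fold change of 0.65 ± 0.64 was -0.20 without that library. Mmp1a and Mmp1b, the rodent counterparts of interstitial collagenase 1, were low, at 1.29 ± 0.448 and 0.514 ± 0.719 CPM under TMA-ARB and 1.32 ± 0.510 and 0.842 ± 0.887 CPM in Control. They share sequence, with 20.7% of the 31-base words of Mmp1b also found elsewhere, mostly in Mmp1a, so their split is uncertain.

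The stromelysin gene Mmp3, whose product also activates procollagenases, measured 483, 339, 1517, 518 and 533 CPM in TMA-ARB replicates 6 to 10, against 415, 2631, 934, 648 and 449 CPM in Control replicates 1 to 5. TMA-ARB replicate 8 and Control replicate 2 again stood above the rest of their groups. Its log2 fold change was -0.58 ± 0.57 (edgeR adjusted p = 0.997) and 0.15 without Control replicate 2. Mmp10, the second stromelysin, measured 99.2, 228, 1032, 275 and 425 CPM in TMA-ARB replicates 6 to 10, against 156, 995, 313, 177 and 354 CPM in Control replicates 1 to 5. The group means nearly coincided, with a log2 fold change of 0.04 ± 0.66 and values of 0.72 on leaving out Control replicate 2 and -0.64 on leaving out TMA-ARB replicate 8. Mmp3 and Mmp10 are similar genes: 14.6% and 11.9% of their 31-base words occur in another gene's transcripts, most of them in each other. Mmp11, stromelysin 3, which is made by stromal fibroblasts of breast tumours, stayed in a narrower range, with 33.3 ± 11.1 CPM under TMA-ARB and 37.7 ± 9.24 CPM in Control.

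Mmp12, the metalloelastase first known from macrophages, differed 35.1-fold between its highest and lowest library, with 45.0, 54.0, 1579, 443.8 and 361 CPM in TMA-ARB replicates 6 to 10, against 97.1, 878, 427, 169 and 255 CPM in Control replicates 1 to 5. The TMA-ARB libraries lay at both ends of the order. The log2 fold change was 0.44 ± 0.99 (edgeR adjusted p = 0.997), -0.70 without TMA-ARB replicate 8 and -0.91 once mitochondrial share (log2) was a covariate. Summed macrophage markers (6 genes, Csf1r, C1qa and others, none at 0) were 1237, 1131, 391, 252 and 436 CPM in TMA-ARB replicates 6 to 10, against 1101, 983, 665, 814 and 823 CPM in Control replicates 1 to 5. Under TMA-ARB the sum was low in replicate 8, where Mmp12 was highest, and high in replicates 6 and 7, where it was lowest. In Control the sum was second highest in replicate 2, where Mmp12 was highest. Not every marker followed the sum. Cd68 was 74.0 CPM in TMA-ARB replicate 8, 62.2 CPM in replicate 6 and 103 CPM in replicate 7. The other markers were lower in TMA-ARB replicate 8 than in replicates 6 and 7. Cd68 (79.5 CPM) and Emr1 (59.0 CPM) were highest among Control libraries in replicate 2. The part of these cells in the Mmp12 level was not tested.

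Together Mmp3, Mmp10, Mmp12 and Mmp13 supplied 46.8% to 93.0% of all MMP CPM under TMA-ARB and 55.7% to 90.5% in Control. The summed MMP level was 6920 CPM in TMA-ARB replicate 8, 1945 to 2539 CPM in the other TMA-ARB libraries, 9266 CPM in Control replicate 2 and 2038 to 4086 CPM in the other Control libraries. Summed TIMP levels were far steadier, at 1302 ± 130 CPM under TMA-ARB and 1464 ± 122 CPM in Control (SD, n = 5 each). The ratio of MMP to TIMP CPM, a ratio of RNA and not of activity, was therefore 4.80 in TMA-ARB replicate 8 and 5.70 in Control replicate 2, and 1.47 to 2.07 in the other TMA-ARB libraries and 1.39 to 2.93 in the other Control libraries.

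**Figure D3:**
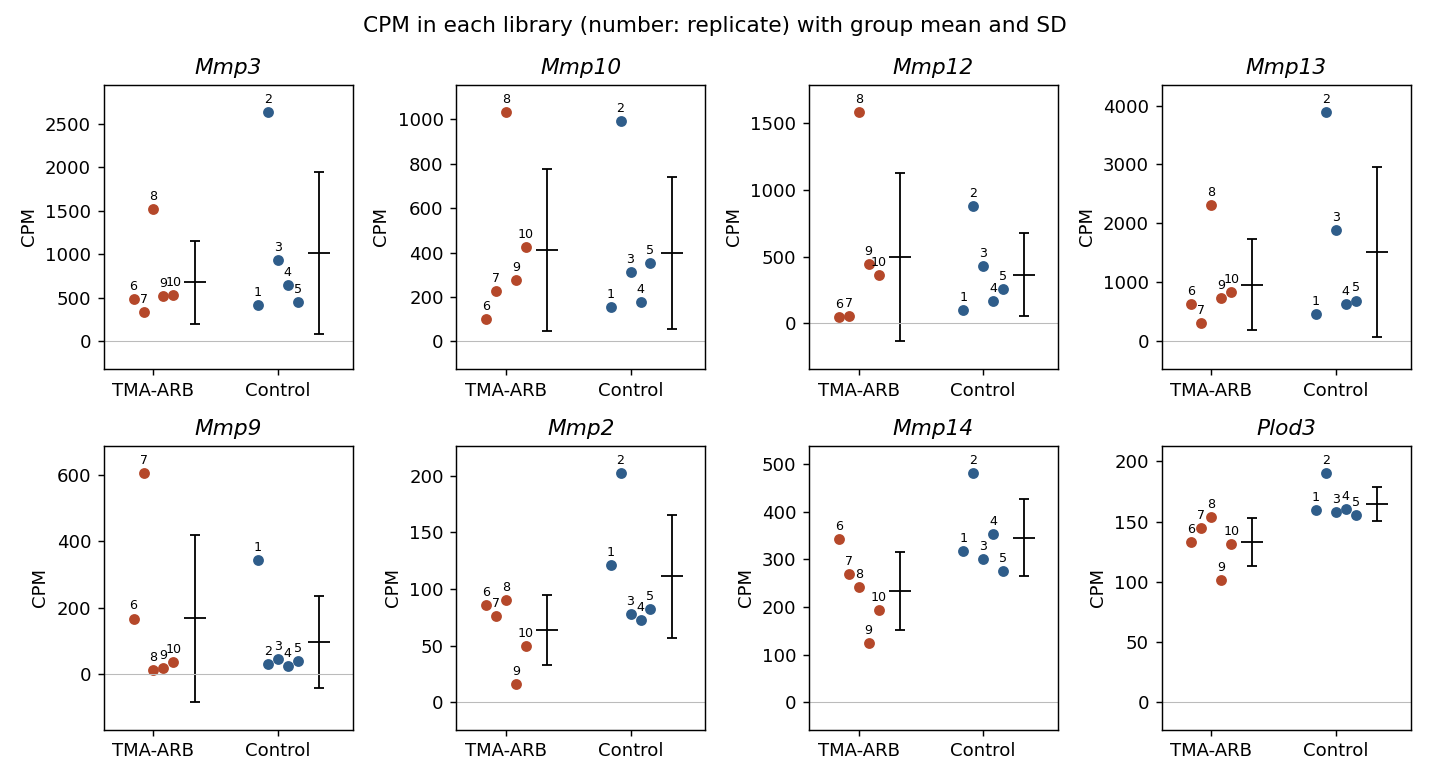
CPM of 8 genes in each library, TMA-ARB (red) left of Control (blue), with replicate numbers beside the points and the group mean and SD in black (n = 5 each). TMA-ARB replicate 8 and Control replicate 2 are highest in Mmp3, Mmp10, Mmp12 and Mmp13, TMA-ARB replicate 7 and Control replicate 1 in Mmp9, and the Plod3 groups do not overlap.

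Of the gelatinase genes, Mmp9 had the largest spread of the whole set, with 167, 606, 11.1, 18.7 and 34.1 CPM in TMA-ARB replicates 6 to 10, against 344, 28.3, 44.2, 21.9 and 38.5 CPM in Control replicates 1 to 5. Its highest and lowest libraries were 54.4-fold apart and were both TMA-ARB tumours. The within-group SD was 2.02 on the log2 scale, and 1.36% of all tested genes had a larger one. Its log2 fold change of 0.81 ± 1.26 (edgeR adjusted p = 0.997) was -0.70 without TMA-ARB replicate 7 and 2.33 without Control replicate 1. The libraries high in Mmp9 were not those high in the abundant chromosome 9 genes Mmp3, Mmp10, Mmp12 and Mmp13.

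The osteoclast genes Ctsk and Acp5 were highest in the same library of each group as Mmp9. Ctsk, the collagen-cutting cathepsin K of osteoclasts, measured 168, 1094, 15.3, 19.2 and 32.98 CPM in TMA-ARB replicates 6 to 10, against 432, 26.7, 52.4, 19.3 and 61.5 CPM in Control replicates 1 to 5. Acp5, which encodes tartrate-resistant acid phosphatase, measured 600 CPM in TMA-ARB replicate 7 and 51.4 to 145 CPM in the other TMA-ARB libraries, against 354 CPM in Control replicate 1 and 64.0 to 107 CPM in the other Control libraries. Calcr, the calcitonin receptor gene, was at 0.423, 2.43, 0, 0 and 0.809 CPM in TMA-ARB replicates 6 to 10, against 1.25, 0, 0, 0 and 0.242 CPM in Control replicates 1 to 5. It was thus higher in TMA-ARB replicate 10, where Mmp9 was low, than in replicate 6. In the list of osteoclast and cartilage markers (Acp5, Calcr, Col2a1 and Acan), the cartilage gene Acan was at 0 in all libraries. Col2a1 was at 0 in TMA-ARB replicate 7 and Control replicate 1. Its highest value was 1.01 CPM, in TMA-ARB replicate 10. The sum of the list, nearly all of it Acp5, was 51.4 to 603 CPM under TMA-ARB and 64.0 to 356 CPM in Control. Neutrophils also carry Mmp9; summed neutrophil markers (6 genes) were 251 CPM in TMA-ARB replicate 7 and 75.8 to 173 CPM in the other TMA-ARB libraries, against 348 CPM in Control replicate 1 and 104 to 259 CPM in the other Control libraries. Summed macrophage markers were 1131 CPM in TMA-ARB replicate 7, 252 to 1237 CPM in the other TMA-ARB libraries, 1101 CPM in Control replicate 1 and 665 to 983 CPM in the other Control libraries. Ctsk and Mmp9 were compared this way after their values were seen. The part of these cells in the Mmp9 level was not tested.

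Mmp2, the gelatinase of fibroblasts, measured 85.6, 76.1, 90.6, 16.2 and 49.8 CPM in TMA-ARB replicates 6 to 10, against 121, 202, 78.1, 72.4 and 82.0 CPM in Control replicates 1 to 5. TMA-ARB replicate 9 was the lowest and Control replicate 2 the highest, and the middle of the groups overlapped. The log2 fold change was -0.80 ± 0.42, the most negative of the set (edgeR adjusted p = 0.997), and -0.47 without Control replicate 2. Once mitochondrial share (log2) was a covariate it was -0.29 ± 0.34.

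The membrane-type MMP gene Mmp14 (chromosome 14, 54431612 to 54445364, mm10), whose product activates the Mmp2 precursor at the cell surface and cuts collagen itself, measured 343, 269, 241, 124 and 194 CPM in TMA-ARB replicates 6 to 10, against 317, 481, 301, 353 and 276 CPM in Control replicates 1 to 5. All 5 TMA-ARB libraries lay below the Control mean, although TMA-ARB replicate 6 was above 3 of the Control libraries. The log2 fold change was -0.56 ± 0.25 (edgeR unadjusted p = 0.0449, adjusted p = 0.997). It was -0.39 without TMA-ARB replicate 9, the library of highest mitochondrial share, and -0.32 ± 0.19 with the log2 share as a covariate. Mmp15 averaged 4.91 ± 2.36 CPM under TMA-ARB and 7.73 ± 2.74 CPM in Control, with a log2 fold change of -0.65 ± 0.37. That value was -0.43 without Control replicate 2, -0.39 with the mitochondrial covariate and -0.26 without both TMA-ARB replicate 8 and Control replicate 2. Mmp16 was the tested member of this class above 0, with 3.89 ± 1.76 CPM under TMA-ARB and 2.67 ± 1.01 CPM in Control and a log2 fold change of 0.54 ± 0.45, which was 0.84 without both TMA-ARB replicate 8 and Control replicate 2. Mmp17, Mmp24 and Mmp25 were below 2 CPM in every library.

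Of the remaining MMPs, Mmp19, a widely expressed MMP, averaged 51.1 ± 11.1 CPM under TMA-ARB and 63.2 ± 10.7 CPM in Control; 22.3% of its exon bases overlap exons of Tmem198b on the other strand. Mmp28, or epilysin, averaged 6.15 ± 1.55 CPM under TMA-ARB and 9.19 ± 5.83 CPM in Control, with all 5 TMA-ARB libraries below the Control mean and the lowest value of all, 2.09 CPM, in Control replicate 3. The log2 fold change of Mmp28 was -0.58 ± 0.44, and it was -0.26 without Control replicate 2 and -0.03 with the mitochondrial covariate. Mmp23 measured 0.786, 5.38, 1.70, 0.921 and 2.50 CPM in TMA-ARB replicates 6 to 10, against 2.43, 0.728, 1.11, 1.79 and 0.666 CPM in Control replicates 1 to 5. TMA-ARB replicate 7 was the highest and the groups overlapped. For Mmp23 the log2 fold change was 0.75 ± 0.62, and 0.15 without that library.

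Mmp27 was too low for the filter, but its groups did not overlap in CPM. It had 11, 13, 30, 8 and 14 counts in TMA-ARB replicates 6 to 10, which is 0.665 to 2.21 CPM, against 1, 10, 5, 8 and 4 counts in Control replicates 1 to 5, or 0.0656 to 0.573 CPM. The gap between the groups was small, with 0.665 CPM in TMA-ARB replicate 6 and 0.573 CPM in Control replicate 4. Before scaling to library size the counts of Mmp27 did overlap, at 8 in TMA-ARB replicate 9 and 10 in Control replicate 2. In edgeR without the filter its log2 fold change was 1.61 ± 0.83 (unadjusted p = 0.064, adjusted p = 0.730). In DESeq2 it was 1.64 ± 0.71 (unadjusted p = 0.0218, adjusted p = 0.995), so it passed in neither. It was singled out after its values were seen, and other genes below the filter without overlap were not counted.

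No inhibitor gene passed the test. Timp1, a secreted inhibitor induced by growth factors and inflammatory signals, measured 367, 603, 594, 739 and 554 CPM in TMA-ARB replicates 6 to 10, against 632, 460, 655, 491 and 367 CPM in Control replicates 1 to 5. The ranges coincided at their low end, and the log2 fold change was 0.13 ± 0.22, which was -0.04 once mitochondrial share (log2) was a covariate. Timp2, which both blocks MMPs and takes part in Mmp2 activation by Mmp14, measured 654, 651, 637, 476 and 562 CPM in TMA-ARB replicates 6 to 10, against 729, 944, 595, 849 and 726 CPM in Control replicates 1 to 5. All 5 TMA-ARB values lay below the Control mean, with Control replicate 3 within their range. Its log2 fold change was -0.37 ± 0.18 (edgeR adjusted p = 0.997), -0.28 without Control replicate 2 and -0.25 ± 0.18 with the covariate. Timp3, the inhibitor that binds to matrix, averaged 134 ± 49.0 CPM under TMA-ARB and 175 ± 47.0 CPM in Control (log2 fold change -0.38 ± 0.26). Of its exon bases 21.3% overlap Syn3 exons on the other strand. With the covariate its log2 fold change was -0.60 ± 0.26, which did not pass either. Timp4 had 2 counts, both in TMA-ARB replicate 7.

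Prolyl 4-hydroxylase alpha subunits catalyse the hydroxylation that keeps the collagen helix stable, and P4ha1 and P4ha2 are known targets of hypoxia-inducible factors. P4ha1 measured 149, 263, 614, 280 and 324 CPM in TMA-ARB replicates 6 to 10, against 303, 633, 296, 308 and 481 CPM in Control replicates 1 to 5. P4ha2 measured 19.8, 44.6, 143, 51.1 and 69.5 CPM in TMA-ARB replicates 6 to 10, against 40.2, 141, 55.2, 48.0 and 73.2 CPM in Control replicates 1 to 5. For both genes TMA-ARB replicate 8 and Control replicate 2 were the highest, TMA-ARB replicate 6 was the lowest, and the groups overlapped. The log2 fold changes were -0.31 ± 0.34 for P4ha1 and -0.13 ± 0.49 for P4ha2; without Control replicate 2 they were -0.09 and 0.28. P4ha3, the minor subunit, averaged 4.20 ± 1.31 CPM under TMA-ARB and 6.48 ± 1.48 CPM in Control, with all 5 TMA-ARB libraries below the Control mean and a log2 fold change of -0.62 ± 0.31 (edgeR unadjusted p = 0.068, adjusted p = 0.997). With the mitochondrial covariate it was -0.40.

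Lysyl hydroxylases make the hydroxylysines that mature crosslinks and sugar chains are built on. Plod3 (chromosome 5, 136987019 to 136996648, mm10), which also carries glycosyltransferase activity, had 133, 145, 154, 102 and 131 CPM in TMA-ARB replicates 6 to 10, against 159, 190, 158, 160 and 155 CPM in Control replicates 1 to 5. The highest TMA-ARB library and the lowest Control library were 153.8 and 155.3 CPM, so the groups were apart by little. The log2 fold change was -0.31 ± 0.16 (edgeR unadjusted p = 0.076, adjusted p = 0.997), between -0.36 and -0.22 with any 1 library left out, and -0.22 ± 0.16 with mitochondrial share as a covariate. Exons of Znhit1 on the other strand overlap 11.7% of its exon bases. Plod1 averaged 96.3 ± 25.5 CPM under TMA-ARB and 133 ± 41.4 CPM in Control (log2 fold change -0.46 ± 0.23, and -0.25 without Control replicate 2). Plod2, the hydroxylase of collagen telopeptides and a known hypoxia target, measured 131, 219, 443.7, 294 and 221 CPM in TMA-ARB replicates 6 to 10, against 173, 354, 217, 249 and 277 CPM in Control replicates 1 to 5. It was highest in TMA-ARB replicate 8 and Control replicate 2, and the groups overlapped. For Plod2 the log2 fold change was 0.04 ± 0.29, and -0.22 with the mitochondrial covariate.

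Lysyl oxidases start the covalent crosslinking of collagen and elastin. All 5 had a log2 fold change at or below 0, from -0.29 to -0.01, and 0 of them passed the test. Lox measured 34.02, 76.9, 147, 37.2 and 56.0 CPM in TMA-ARB replicates 6 to 10, against 36.9, 153, 85.7, 65.0 and 89.5 CPM in Control replicates 1 to 5. TMA-ARB replicate 8 and Control replicate 2 were highest once more, and the log2 fold change of -0.29 ± 0.44 was 0.02 without Control replicate 2. Loxl2, which acts on collagen IV of basement membranes, averaged 37.7 ± 23.6 CPM under TMA-ARB and 44.6 ± 15.8 CPM in Control. It was highest in TMA-ARB replicate 7 (72.4 CPM) and Control replicate 2 (68.7 CPM), and low in TMA-ARB replicate 8 (20.8 CPM), where Lox was high. Of its 31-base words 46.2% also occur in another gene, mostly Gm21451, which was listed at 0 in all libraries. Loxl1, tied to elastic fibres, averaged 33.6 ± 11.5 CPM under TMA-ARB and 40.5 ± 5.99 CPM in Control. Loxl3 averaged 35.0 ± 7.98 CPM under TMA-ARB and 35.3 ± 2.93 CPM in Control, and Loxl4 averaged 11.8 ± 6.63 CPM under TMA-ARB and 13.4 ± 8.17 CPM in Control.

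Tgm2 (chromosome 2, 158116402 to 158146436, mm10), which encodes transglutaminase 2, an enzyme that links glutamine to lysine residues of matrix proteins, measured 157, 78.9, 143, 108 and 148 CPM in TMA-ARB replicates 6 to 10, against 200, 215, 151, 141 and 181 CPM in Control replicates 1 to 5. All TMA-ARB libraries lay below the Control mean, and 3 of them overlapped the low end of Control. The log2 fold change of -0.49 ± 0.21 had the smallest unadjusted p of the set (0.0374; edgeR adjusted p = 0.997). It was between -0.57 and -0.35 with any 1 library left out and -0.39 ± 0.23 with mitochondrial share as a covariate. Of its exon bases 13.7% overlap Gm20412 exons on the other strand. The collagen chaperone gene Serpinh1 averaged 551 ± 90.4 CPM under TMA-ARB and 515 ± 69.2 CPM in Control (log2 fold change 0.10 ± 0.18). Pcolce, whose product speeds the removal of the procollagen C-propeptide, averaged 471 ± 105 CPM under TMA-ARB and 464 ± 82.4 CPM in Control (0.02 ± 0.21, and -0.22 with the covariate).

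Many members were highest in the same tumours. TMA-ARB replicate 8 was the highest library for 7 of the 34 members (20.6%), and for 11.7% of all 14063 genes. Control replicate 2 was the highest for 16 members (47.1%), and for 11.9% of all genes. The top pair was TMA-ARB replicate 8 and Control replicate 2 for 11 members (32.4%), against 5.06% of all genes. These 11 were Mmp3, Mmp8, Mmp10, Mmp11, Mmp12, Mmp13, P4ha1, P4ha2, Plod1, Plod2 and Lox. Over the other 8 libraries Mmp3 spanned 339 to 934 CPM and P4ha2 19.8 to 73.2 CPM. This pattern was noticed after the data were seen, and neighbouring genes of 1 cluster are not independent.

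**Figure D4:**
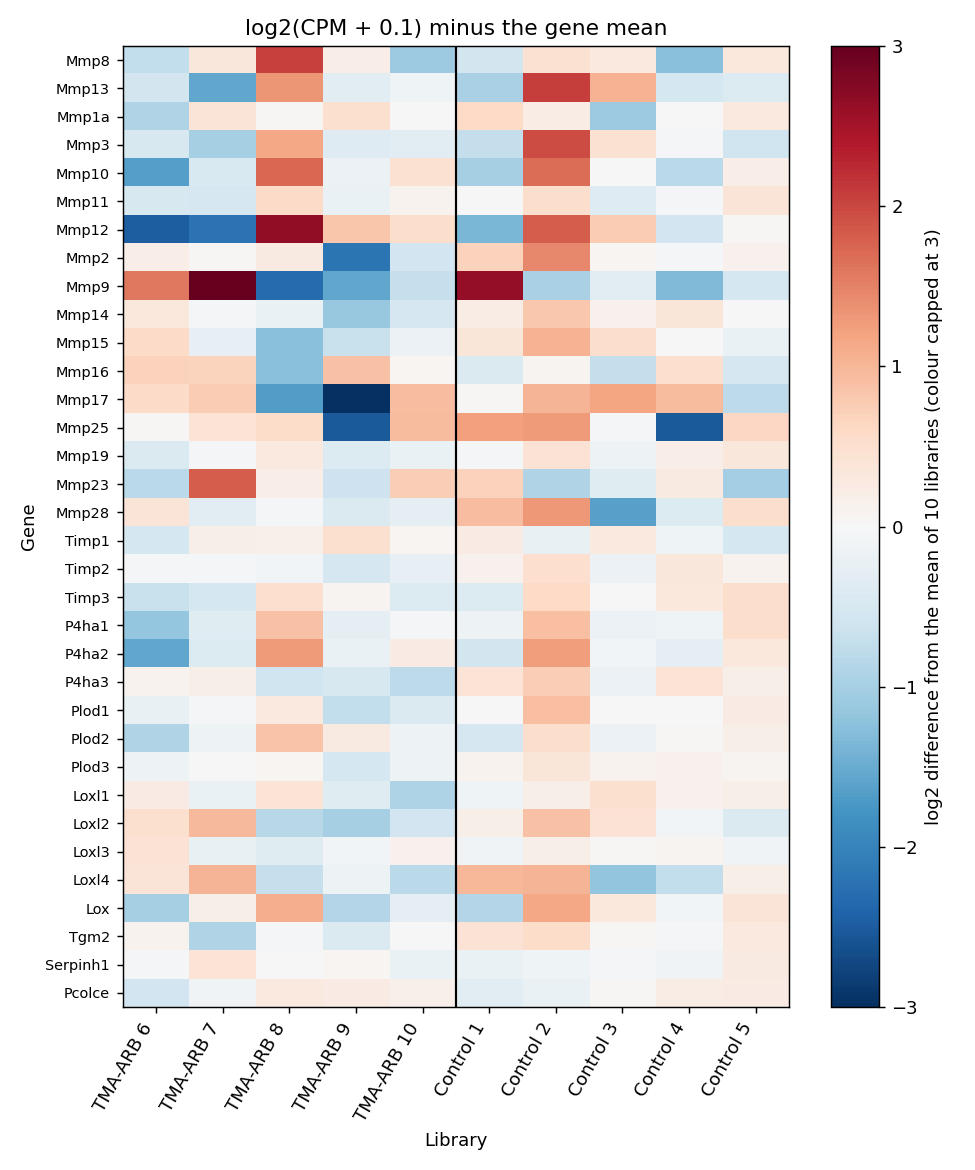
log2(CPM + 0.1) minus each gene's mean over the 10 libraries, for the 34 genes tested (rows, by role) and 10 libraries (columns, TMA-ARB left of the black line). Columns TMA-ARB 8 and Control 2 are red for Mmp3, Mmp10, Mmp12, Mmp13, P4ha1, P4ha2 and Lox, and Mmp9 is red in TMA-ARB 6, TMA-ARB 7 and Control 1.

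Hypoxia genes were high in the same pair of tumours. Over 11 genes (Slc2a1, Vegfa, Car9 and others, none at 0), the summed level was 8920 CPM in TMA-ARB replicate 8 and 2193 to 5176 CPM in the other TMA-ARB libraries, against 9537 CPM in Control replicate 2 and 4339 to 5958 CPM in the other Control libraries. That pair held the 2 highest values for 9 of the 11 hypoxia genes. The glucose transporter gene Slc2a1, picked after its values were seen, was at 1398 CPM in TMA-ARB replicate 8 and 1219 CPM in Control replicate 2. Their part in the MMP and hydroxylase levels was not tested. Of the 11 hypoxia genes 9 had a log2 fold change below 0 and 0 passed the test.

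**Figure D5:**
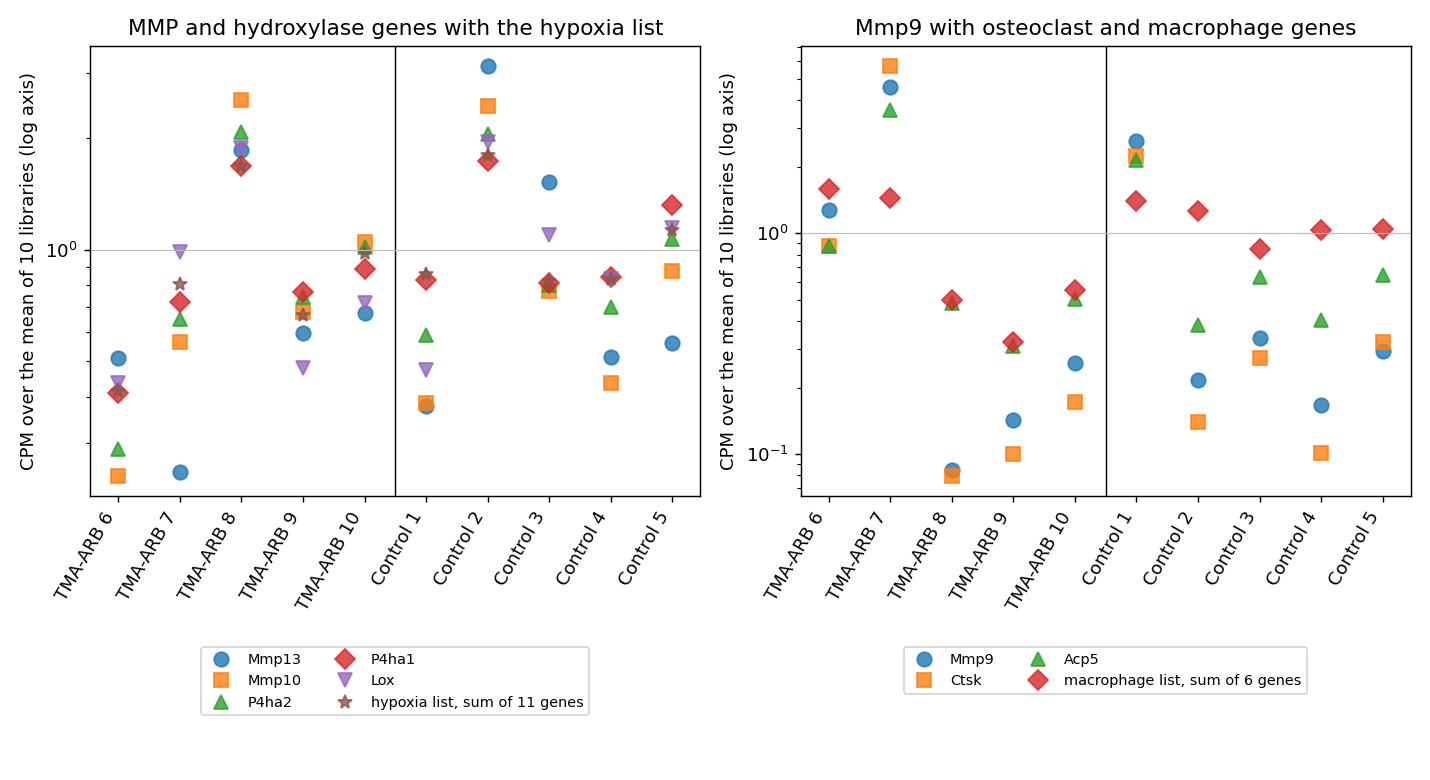
CPM divided by the mean of the 10 libraries (log axis) in each library, TMA-ARB left of the black line. Left: Mmp13, Mmp10, P4ha2, P4ha1, Lox and the summed hypoxia list, all above 1 in TMA-ARB replicate 8 and Control replicate 2. Right: Mmp9, Ctsk, Acp5 and the summed macrophage list; the first 3 are highest in TMA-ARB replicate 7 and Control replicate 1.

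Other genes of the pathway were read from fixed lists. Among 19 measured genes of MMP activation and regulation (of 22 in the table), 8 were above 0 and 11 below, with a median log2 fold change of -0.02 and 0 calls. Furin, the protease that activates membrane-type MMPs, averaged 107 ± 15.6 CPM under TMA-ARB and 141 ± 22.3 CPM in Control (log2 fold change -0.40 ± 0.17). Adam15, a membrane-anchored sheddase gene, averaged 99.1 ± 17.1 CPM under TMA-ARB and 126 ± 15.5 CPM in Control (-0.34 ± 0.17). Lrp1, an uptake receptor for MMP and inhibitor complexes, averaged 717 ± 154 CPM under TMA-ARB and 956 ± 225 CPM in Control (-0.42 ± 0.22). The protease inhibitor gene Tfpi2 was low, at 4.15 ± 2.82 CPM under TMA-ARB and 2.01 ± 1.08 CPM in Control (1.04 ± 0.53). Of 7 measured cathepsins and other matrix proteases 5 were below 0 (median -0.29, 0 calls). The smallest p there was that of Mrc2, the receptor that takes up cleaved collagen, which measured 42.5, 30.7, 33.1, 23.5 and 31.9 CPM in TMA-ARB replicates 6 to 10, against 44.6, 81.2, 37.1, 60.5 and 53.1 CPM in Control replicates 1 to 5. One TMA-ARB library, replicate 6, lay above the lowest Control library. Its log2 fold change was -0.77 ± 0.23 (edgeR unadjusted p = 0.0042, adjusted p = 0.997). Of 22 measured genes of collagen processing 17 were below 0, with a median of -0.12 and 0 calls. Among them Adamts2, which encodes the procollagen N-proteinase, averaged 37.7 ± 6.28 CPM under TMA-ARB and 46.5 ± 11.9 CPM in Control (-0.30 ± 0.21). Tgm1, a transglutaminase of epithelia, averaged 1.30 ± 0.681 CPM under TMA-ARB and 3.00 ± 1.07 CPM in Control (log2 fold change -1.19 ± 0.50, edgeR unadjusted p = 0.0306, adjusted p = 0.997).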

How the data were processed

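For each Ensembl gene the authors deposited estimated counts in 10 library columns. Salmon and mm10 are named by the submitters' processing notes. The sources used here do not give Salmon's version, its annotation or its strand setting. Rounding altered no value, since 0 entries were fractional. Poly-A RNA went into strand-marking NEBNext libraries, per the labels' protocols. Columns were matched by the sample names in the labels, with 0 unmatched.

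The test was edgeR 4.0.16 (R 4.3.3), quasi-likelihood with robust dispersions, TMM scaling, the default expression filter and Benjamini-Hochberg adjustment at 0.05 over 14063 genes. The SE is the absolute log2 fold change divided by the square root of F. On simulated counts the edgeR fit was checked for genes called and for error in the fold change, not for the SE. DESeq2 1.42.0, RLE scaling, no filter, the log2 mitochondrial share as a covariate and leaving out each library were alternatives. A fit without Control replicate 2 and TMA-ARB replicate 8 was added after the data were seen. Spread used log2(CPM + 0.1). Exon lengths, overlaps and 31-base words came from GENCODE mouse release 21, on the assembly of mm10, which held 37607 of the 37882 genes. Estimated counts divide reads among similar transcripts. Every member is named. By rule, values for each library are given for members at an unadjusted p under 0.05, the 2 highest and 2 lowest fold changes at 1 CPM or more, and the highest per kb among MMP, TIMP, Lox, Plod and P4ha genes; from other lists at most 4 genes of smallest p are named. Further members and marker genes shown by library (such as Mmp27, Ctsk and Slc2a1) were picked after their values were seen. The members and lists were chosen with earlier results of these data known.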

Additional observations from a re-analysis of the deposited data

Results flagged for a closer look

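In 68 sets of 5 libraries (34 genes in 2 groups), 11 had a library whose gap to its nearest neighbour, as a share of the group's range, was above Dixon's 95% critical value of 0.71. For normally distributed values chance flags about 1 set in 20. The values used were CPM without a log, whose skew can add flags at the high end. That rate may therefore not hold here, and genes that vary together are not independent. All 11 were at the high end, 4 of them in TMA-ARB replicate 8 and 4 in Control replicate 2.

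TMA-ARB replicate 8 stood alone for Mmp13 (2306 CPM, the other TMA-ARB libraries at most 834), Mmp12 (1579 CPM, at most 443.8), Mmp3 (1517 CPM, at most 533) and Mmp8 (7.301 CPM, at most 2.17). Control replicate 2 stood alone for Mmp3 (2631 CPM, the other Control libraries at most 934), Mmp10 (995.2 CPM, at most 354), Plod1 (204.9 CPM, at most 129) and Plod3 (190.2 CPM, at most 160). Mmp9 stood alone at 606.2 CPM in TMA-ARB replicate 7 (at most 167 in the other TMA-ARB libraries) and at 344.3 CPM in Control replicate 1 (at most 44.2 in the other Control libraries). Serpinh1 was at 634.4 CPM in Control replicate 5 (at most 509 in the other Control libraries).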

How the results depend on the processing

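No paired analysis was possible because replicate numbers run from 1 to 10 with none shared between groups. EdgeR called 0 genes and 0 members in every fit; DESeq2 called 2 genes, 0 of them members (unadjusted p under 0.05: 457 of 14063 genes and 2 of 34 members in edgeR, 826 of 23981 unfiltered genes in DESeq2, with 3 of those 34 members and Mmp27). The number of members with a positive log2 fold change was 6 to 15 with 1 library left out, against 10. With 1 library left out, the log2 fold change changed sign for 13 of 34 members, whose ranges were Loxl3 -0.14 to 0.081, Mmp8 -0.20 to 0.89, Mmp9 -0.70 to 2.33, P4ha2 -0.63 to 0.28, Lox -0.75 to 0.020, Loxl4 -0.54 to 0.068, Pcolce -0.057 to 0.15, Plod2 -0.23 to 0.22, Mmp1a -0.24 to 0.15, Mmp3 -1.12 to 0.15, Mmp10 -0.64 to 0.72, Mmp12 -0.70 to 1.07, Mmp13 -1.27 to 0.062. Once mitochondrial share (log2) was a covariate the sign changed for Loxl3 (0.055), Timp1 (-0.038), Mmp25 (0.38), Loxl4 (0.45), Pcolce (-0.22), Plod2 (-0.22), Loxl2 (0.061), Mmp10 (-0.20) and Mmp12 (-0.91). Without Control replicate 2 and TMA-ARB replicate 8 together it changed for Loxl3 (0.11), Mmp8 (-0.044), Loxl4 (0.22), Pcolce (-0.10), Plod2 (-0.081), Loxl2 (0.12), Mmp1a (0.0040) and Mmp12 (-0.069). Loxl3, near 0, was at 0.0030 with RLE scaling and 0.0017 in DESeq2. The cause was not tested. Mmp17 and Mmp25 rest on 150 and 105 counts in all, so depth limits them.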
